A study of Mus musculus with 12 samples.

Results

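The 10 genes described here encode the enzymes and the helper protein that make, and in 1 case break down, leukotrienes, lipoxins and prostaglandins: *Alox5*, *Alox5ap*, *Lta4h*, *Ltc4s*, *Alox15*, *Ptgs1*, *Ptgs2*, *Ptges*, *Hpgds* and *Hpgd*. They were taken by gene symbol from a table of 55487 genes, in which all 10 were found and all 10 passed the filter on low counts. The measurements are RNA-Seq read counts from 12 whole lungs of C57BL/6J *miR-30a*-/- mice, in which the microRNA gene was removed with CRISPR/Cas9. The controls carried the same deletion, and wild-type lungs were not analysed here. Pups of either sex breathed 95% oxygen (hyperoxia) from postnatal day (PND) 1 to PND 5 or stayed in room air, and every lung was taken on PND 21, so the values describe lungs after a recovery period in room air. Each of the 4 groups, hyperoxia-exposed females, room air females, hyperoxia-exposed males and room air males, held 3 lungs. Pups of several litters were mixed before they were divided between the chambers, and litter is not given per lung. The question put to each gene was whether its level at PND 21 differed after hyperoxia in females, in males or in both sexes together, and whether the difference depended on sex.

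Eicosanoids are signalling lipids made from arachidonic acid that phospholipases release from membranes. The lipoxygenase branch starts with 5-lipoxygenase and its partner protein FLAP and leads to leukotriene B4, which draws in neutrophils, and to the cysteinyl leukotrienes, which constrict airways and make vessels leak. The cyclooxygenase branch yields prostaglandins, which act on vascular tone, on airway smooth muscle and on inflammation, and the lung is a major site where circulating prostaglandins are broken down.

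The lungs lacked the microRNA whose mature 5′ arm is shown here, as RefSeq lists it on GRCm38.p6 (chr1:23272274-23272295, plus strand), with the seed, bases 2 to 8, in capitals.
miR-30a-5p: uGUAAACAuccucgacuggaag
The letters that pair with this seed, TGTTTAC, were searched for in the longest annotated 3′ untranslated region of each gene. *Hpgds* held 1 match, which began at base 2077 of 2631 in that region and is shown in capitals with 10 bases on each side, and the other 9 genes held none.
Hpgds site: ccaaaatgacTGTTTACttactcatgg
Of 21677 genes searched in the same way, 13.4% held the letters. The same seed is carried by miR-30c-5p, miR-30e-5p and miR-384-5p, which lie elsewhere in the genome, so the letters are not a site for miR-30a alone. A match is only a stretch of letters, and the deleted gene itself, *Mir30a*, had 0 counts in every library, so the deletion could not be read from these counts.

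Depth ran from 8763033 to 16741694 counted reads per lung. Levels are given as CPM, which relate the counts of a gene to the size of its library, scaled by the upper quartile of each library, and values of single lungs follow the order of the animal numbers in the labels: 2, 5 and 6 for room air females, 2, 4 and 5 for hyperoxia-exposed females, 1, 4 and 5 for room air males, and 1, 2 and 3 for hyperoxia-exposed males. *Xist* and *Ddx3y* separated the sexes as labelled. The 8 lung tissue markers summed to between 7758 and 21287 CPM, so the markers of the labelled tissue were present. The room air male animal 1 stood apart, with 1002 CPM on 4 skeletal muscle markers against at most 50.8 CPM in the other lungs, so values in males without it are given near the end. The share of counts on olfactory and vomeronasal receptor genes ran from 0.453% in room air female 5 to 1.04% in hyperoxia-exposed male 2. These genes are little expressed outside sensory tissue, and their share was taken, without a test, as a gauge of reads that fall outside expressed genes. In females it was 0.453% to 0.819% in room air and 0.738% to 0.936% after hyperoxia. The paper names sensory perception and *Olfr78* as higher in hyperoxia-exposed *miR-30a*-/- females. Whether a model that includes the share also removes part of an effect of hyperoxia was not tested. For each gene, the background share named here is the density of reads on those receptor genes times the exon length of the gene, as a percent of its counts.

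The levels per length of exon spanned 76.6-fold. *Hpgd* stood highest with a mean of 162 CPM per kilobase of exon (range over 12 lungs 118 to 228), and its lowest lung was above every lung of every other gene in the set. *Ptgs1* followed with 11.9 CPM per kilobase, *Alox5ap* with 10.9, *Lta4h* with 8.67, *Ptges* with 6.25, *Alox15* with 5.77 and *Alox5* with 5.62. *Ltc4s* with 4.05, *Ptgs2* with 3.04 and *Hpgds* with 2.12 CPM per kilobase were the lowest. Apart from *Hpgd* over *Ptgs1* and *Alox5* over *Ltc4s*, the ranges of neighbours in this order overlapped. The background share was 0.714% for *Hpgd* but 38.4% for *Ptgs2* and 56.2% for *Hpgds*, which is how much of their counts the receptor density alone would give.

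**Figure D1:**
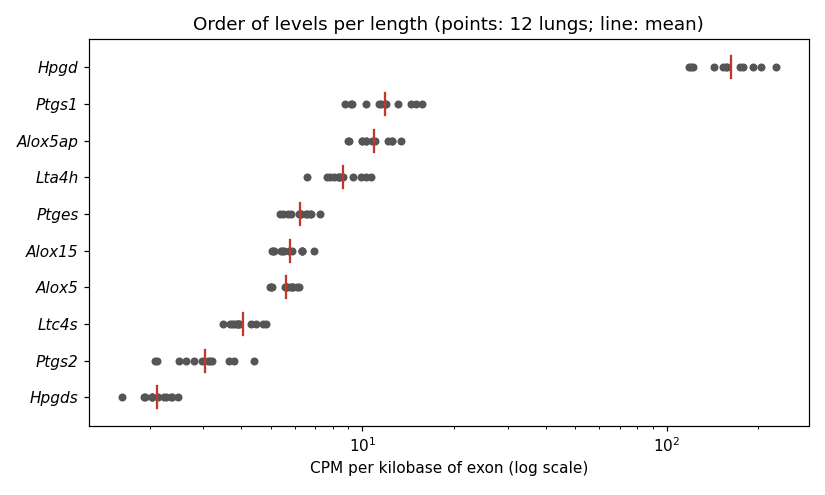
Level of each gene per length of exon, in CPM per kilobase on a log axis, with 1 point for each of 12 lungs and a line at the mean. *Hpgd* (162 on average) is separated from the other 9 genes, which lie between 2.12 and 11.9 on average.

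None of the 10 genes was called in any of the 5 comparisons, where a call asked for more than a 1.5-fold change and for an adjusted p below 0.05 by edgeR's quasi-likelihood test. The called share of all 45828 genes tested was 0.00218% for hyperoxia in females, 0.0% in males, 0.0415% in both sexes together, 0.0% for the interaction of sex and hyperoxia, and 1.22% for females against males. In females this share depended on the model. It was 4.15%, 4.2% and 4.46% with 1, 2 and 3 factors of unwanted variation estimated by RUVr, the correction the study names. The share was 1.09% with the animal number as a block, in females 2 and 5 of each exposure only, and 0.44% without room air female 6. The number does not mark a pair, because each pup was either exposed or kept in room air. None of the 10 genes was called in females under these settings. Log2 fold changes after hyperoxia ran from -0.48 to 0.19 in females, from -0.18 to 0.29 in males and from -0.33 to 0.08 in both sexes. The median over the 10 genes was -0.13 in females, with 7 of 10 below 0, beside a median of 0.11 over all genes tested. It was 0.03 in males, with 5 of 10 below 0, beside -0.01 over all genes. At an unadjusted p under 0.05, 2 of the 10 genes were lower in females, beside 5.28% of all genes, 0 of 10 differed in males in either direction, beside 2.7%, and 1 of 10 was lower in both sexes, beside 2.52%. DESeq2 called 0 of the 10 genes in each of the 5 comparisons, beside 0.194% of all genes in females, 0.0% in males, 0.0873% in both sexes, 0.0% for the interaction and 1.73% for sex.

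**Figure D2:**
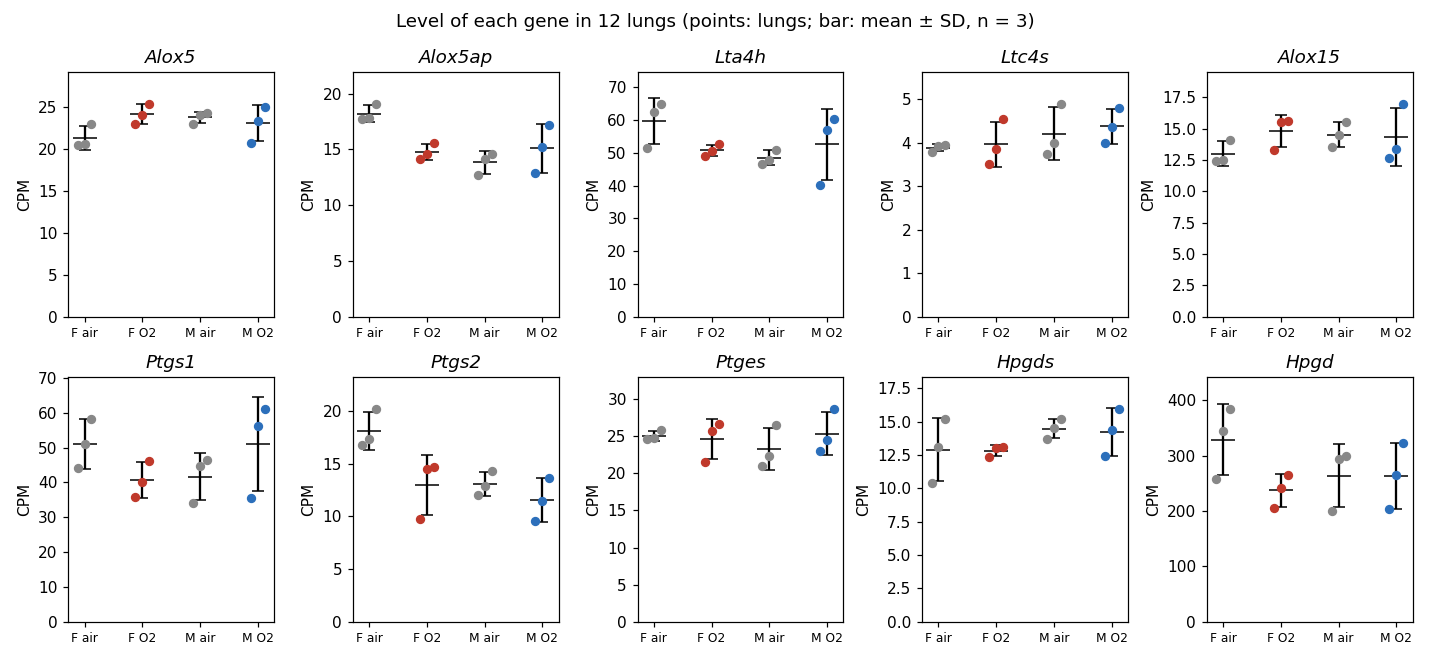
CPM of the 10 genes in each of 12 lungs, in the groups female room air (F air), female hyperoxia (F O2), male room air (M air) and male hyperoxia (M O2), with the mean and SD of 3 lungs. The female groups are separate for *Ptgs2* and *Alox5ap*, and for all other genes, and for all 10 in males, hyperoxia and room air lungs overlap.

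*Ptgs2*, the inducible cyclooxygenase (COX-2) that inflammatory signals switch on, carried the lowest p of the set in females. *Ptgs2* (ENSMUSG00000032487, mm10 chromosome 1, 150100031 to 150108227, plus strand) stood at 17.3, 20.2 and 16.7 CPM in room air females and at 9.71, 14.5 and 14.7 CPM in hyperoxia-exposed females. All 3 hyperoxia-exposed females lay below all 3 room air females, and the animal farthest down was animal 2. In males the values were 14.3, 12.9 and 12.04 CPM in room air and 9.53, 11.4 and 13.7 CPM after hyperoxia, which overlapped. The log2 fold change of *Ptgs2* in females was -0.48 with a standard error (SE) of 0.17, or 0.716-fold with a 95% interval from 0.563 to 0.910, and the adjusted p by edgeR was 0.352 (unadjusted, 0.00808). In males it was -0.18 (SE 0.17), from -0.32 without hyperoxia-exposed male 3 to -0.05 without hyperoxia-exposed male 1, and over both sexes -0.33 (SE 0.12), with an adjusted p by edgeR of 0.927. With the animal number as a block, in females 2 and 5 and males 1 of each exposure only, it was -0.61 over both sexes (adjusted p by edgeR 1.00). Groups that do not overlap with hyperoxia lower were found for 6.42% of all genes in females, and *Ptgs2* and *Alox5ap* were the 2 of 10 genes with that pattern. No gene of the set had separate groups with hyperoxia higher in females, beside 10.8% of all genes, and none was separate in either direction in males, beside 3.89% lower and 2.73% higher.

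The estimate for *Ptgs2* in females depended on single lungs. Leaving out each lung in turn gave -0.58 to -0.32, the smallest change without hyperoxia-exposed female 2, and none of these values was called. Once the receptor share entered the model, its log2 fold change was -0.55 in females (adjusted p by edgeR 0.406) and -0.36 in both sexes (adjusted p by edgeR 0.148). With 1, 2 or 3 RUVr factors it was -0.49 in females for each number of factors, and the edgeR adjusted p was 0.00719, 0.00408 and 0.00385, but the fold change stayed under 1.5. Under RUVr with 1 factor an adjusted p under 0.05 with lower levels in females, at any fold, was reached by 11.1% of all genes, and by *Ptgs2*, *Ptgs1*, *Lta4h* and *Hpgd* among the 10. In both sexes together it was reached by *Ptgs2* and *Hpgd*, beside 4.05% of all genes.

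*Ptgs2* was also the gene of the set with the lowest p for sex. Females stood above males by a log2 difference of 0.32 (SE 0.12) averaged over both exposures, with an adjusted p by edgeR of 0.408. At an unadjusted p under 0.05 it was the 1 gene of 10 that was higher in females, beside 4.05% of all genes. With 1 factor of RUVr the edgeR adjusted p was 0.0435, and 3.98% of all genes were higher in females at that threshold. The 3 room air females, at 16.7 to 20.2 CPM, lay above all lungs of the other groups, the highest of which had 14.7 CPM. *Alox5ap* had the same pattern, with 17.7 to 19.1 CPM in room air females and at most 17.2 CPM in the other lungs. The share of all genes with this pattern was not computed.

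RefSeq promoters, 250 bases before to 50 bases after the annotated start on GRCm38.p6, were found for 8 of the 10 genes, and those of the cyclooxygenases are shown because these genes had the lowest p in females and for the interaction. Capitals mark GAGGAA (the core of sites for PU.1, a factor of myeloid cells), GGGCGG (the GC box), CACGTG (the E-box) and TGACG (a partial cyclic AMP response element), on either strand.
Ptgs2 promoter, chr1:150099781-150100080, plus strand: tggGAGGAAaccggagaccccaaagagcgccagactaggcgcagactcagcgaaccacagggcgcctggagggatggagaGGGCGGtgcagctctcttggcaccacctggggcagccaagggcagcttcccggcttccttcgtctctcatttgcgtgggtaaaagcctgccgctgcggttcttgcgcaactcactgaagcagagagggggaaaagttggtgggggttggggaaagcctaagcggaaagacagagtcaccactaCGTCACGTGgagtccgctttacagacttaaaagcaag
Ptgs1 promoter, chr2:36230176-36230475, plus strand: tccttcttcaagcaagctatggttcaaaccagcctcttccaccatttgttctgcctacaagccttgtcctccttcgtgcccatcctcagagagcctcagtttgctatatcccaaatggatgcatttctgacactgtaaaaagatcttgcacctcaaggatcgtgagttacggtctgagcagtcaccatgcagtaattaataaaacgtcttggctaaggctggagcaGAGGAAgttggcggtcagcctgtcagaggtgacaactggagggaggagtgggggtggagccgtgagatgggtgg
In *Ptgs2* the partial element (read on the minus strand as CGTCA, from base 14 after the start) and the E-box (from base 17) overlap. *Ptgs2* was the only 1 of the 8 promoters with either, and 20.8% of 32817 mouse promoters of this length held TGACG and 7.15% held CACGTG. The full element TGACGTCA was in none of the 8 and in 1.79% of all. GAGGAA was in 8 of the 8, *Ptgs1* included, and in 28.3% of all promoters. GGGCGG was in *Ptgs2*, *Ptges*, *Alox5* and *Hpgd* and in 35.6% of all promoters, CCAAT was in *Lta4h* and in 37.4%, and TATAAA was in *Hpgd* and in 13.6%. These are matches of letters, and nothing follows from them about binding.

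*Ptgs1*, the constitutive cyclooxygenase (COX-1) of platelets, endothelium and many other cells, gave opposite estimates in the sexes. *Ptgs1* (ENSMUSG00000047250, chromosome 2, 36230426 to 36252272, plus strand) stood at 50.9, 58.3 and 44.1 CPM in room air females and at 46.3, 35.9 and 40.0 CPM in hyperoxia-exposed females. In males it stood at 34.0, 44.7 and 46.3 CPM in room air and at 61.1, 35.6 and 56.3 CPM after hyperoxia. The groups overlapped in both sexes, and hyperoxia-exposed males 1 and 3 lay above all room air males. The log2 fold change was -0.33 (SE 0.19) in females and 0.29 (SE 0.19) in males, where it ran from 0.15 without hyperoxia-exposed male 1 to 0.50 without hyperoxia-exposed male 2. The interaction of sex and hyperoxia, the difference between these changes, was -0.62 (SE 0.27), with an edgeR unadjusted p of 0.0299 and an adjusted p of 0.578. *Ptgs1* and *Alox5ap* were the 2 of 10 genes with an unadjusted p under 0.05 and a lower change in females, beside 2.4% of all genes.

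The sex difference in *Ptgs1* depended on the treatment of unwanted variation. It was called with 1, 2 or 3 RUVr factors, where the interaction was -0.59, -0.60 and -0.60 and the edgeR adjusted p was 0.000763, 0.000461 and 4.24e-05, beside 1.27%, 1.34% and 1.39% of all genes called with the change lower in females. At any fold, 7.9% of all genes passed an adjusted p under 0.05 in that direction with 1 factor, and so did *Hpgd* (edgeR adjusted p 0.00281, 0.00116 and 2.93e-05 with 1, 2 and 3 factors). *Lta4h* passed at any fold with 2 and 3 factors (edgeR adjusted p 0.0461 and 0.0251). Without any correction, leaving out each lung in turn gave an interaction of *Ptgs1* from -0.83 to -0.48, and none was called. Once the receptor share entered the model, the interaction was -0.19 (adjusted p by edgeR 1.0), and the log2 fold change was 0.01 in females and 0.20 in males. In the count table, 148 of 3884 exon bases of *Ptgs1* overlap those of *Gm43621* on the opposite strand, and the strand setting of the counting is not given in the sources used here.

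*Ptges*, the inducible prostaglandin E synthase that works with COX-2, lay between 21.0 and 28.7 CPM in all 12 lungs. *Ptges* (ENSMUSG00000050737, chromosome 2, 30889471 to 30929863, minus strand) stood at 24.6, 25.8 and 24.7 CPM in room air females and 26.7, 21.5 and 25.7 CPM in hyperoxia-exposed females. Male lungs stood at 22.3, 26.5 and 21.0 CPM in room air and 28.7, 22.97 and 24.4 CPM after hyperoxia. The groups overlapped, and the log2 fold change over both sexes was 0.05, with a 95% interval from -0.16 to 0.26.

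*Hpgds*, the haematopoietic prostaglandin D synthase of mast cells and other immune cells, was the lowest of the set per length. *Hpgds* (ENSMUSG00000029919, chromosome 6, 65117293 to 65144908, minus strand) stood at 10.4, 13.1 and 15.2 CPM in room air females and 12.3, 13.1 and 13.1 CPM in hyperoxia-exposed females. In males it stood at 15.2, 14.5 and 13.7 CPM in room air and at 12.4, 14.4 and 15.9 CPM after hyperoxia. The groups overlapped, and the log2 fold change over both sexes was -0.01 with a 95% interval from -0.24 to 0.21, at a background share of 56.2%.

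*Hpgd*, the 15-hydroxyprostaglandin dehydrogenase that inactivates prostaglandins, was the most abundant gene of the set, and its coefficient of variation over the 12 lungs was 21.3%, next to 22.5% for *Ptgs2*. *Hpgd* (ENSMUSG00000031613, chromosome 8, 56294585 to 56321043, plus strand) stood at 344, 384 and 258 CPM in room air females and 265, 241 and 206 CPM in hyperoxia-exposed females. The groups overlapped only through room air female 6 and hyperoxia-exposed female 2. In males it stood at 199, 299 and 294 CPM in room air and at 322, 203 and 264 CPM after hyperoxia, with wide overlap. The log2 fold change was -0.47 (SE 0.26) in females, with an adjusted p by edgeR of 0.426, 0.00 (SE 0.26) in males and -0.24 (SE 0.19) over both sexes. The interaction was -0.47 (SE 0.37), and once the receptor share entered the model it was 0.04.

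Over the 12 lungs, *Hpgd* moved with the receptor share of the library. How many of all genes moved with it as closely was not computed, so the relation cannot be called particular to these genes. The correlation of log2 CPM of *Hpgd* with that share had a Pearson r of -0.95 and a Spearman rho of -0.94 (permutation p 1e-05, the smallest that 100000 permutations can give, and 2e-05; 0.0001 and 0.0002 after adjustment over the 10 relations computed). Without the 2 lungs farthest from the median share r was -0.92, and after the mean of each group was subtracted it was -0.95. *Lta4h* (r -0.89, rho -0.81, adjusted permutation p 0.0006 and 0.00753) and *Ptgs1* (r -0.85, rho -0.87, adjusted permutation p 0.00243 and 0.00165) followed the same course. Without the 2 lungs r was -0.81 for *Lta4h* and -0.75 for *Ptgs1*, and within groups it was -0.85 and -0.88. *Alox5* ran the other way, with r 0.83 and rho 0.69 (adjusted permutation p 0.00282 and 0.0391), r 0.68 without the 2 lungs and r 0.75 within groups.

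The remaining genes followed the share less closely. For *Ptges* r was -0.60 and rho -0.66 (adjusted permutation p 0.067 and 0.045), r was -0.47 without the 2 lungs, and within groups it was -0.64. For *Ptgs2* r was -0.24 and rho -0.12 (adjusted permutation p 0.513 and 0.764), r was -0.22 without the 2 lungs, and within groups it was 0.31. For *Alox5ap* r was -0.64 and rho -0.43 (adjusted permutation p 0.0504 and 0.201), r was -0.38 without the 2 lungs, and within groups it was -0.41. For *Hpgds*, *Alox15* and *Ltc4s* r was 0.53, 0.51 and 0.00, with an adjusted permutation p between 0.105 and 0.99 for r and between 0.136 and 0.764 for rho. The share and the CPM come from the same 12 libraries, and the part of the share in the differences between groups was not tested beyond the model that includes it. In the model with the share the log2 fold change in females was -0.07 for *Hpgd* (95% interval -0.28 to 0.15) and -0.01 for *Lta4h* (-0.22 to 0.21). The 2 lowest shares of the 6 female lungs were those of room air females 5 and 2, which also had the highest *Hpgd*.

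**Figure D3:**
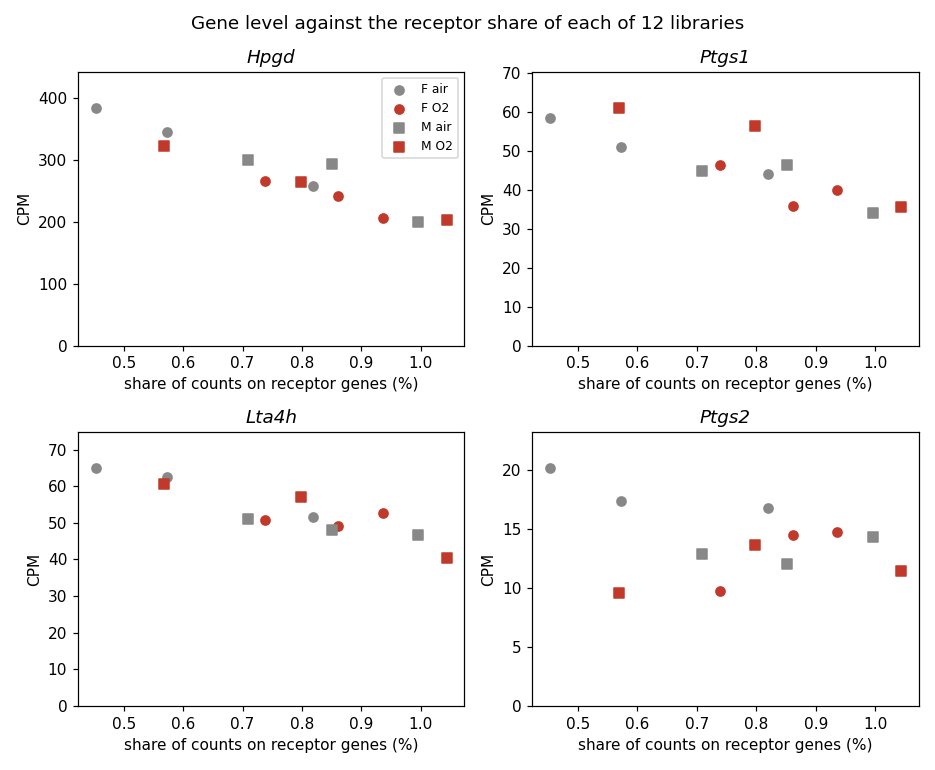
CPM of *Hpgd*, *Ptgs1*, *Lta4h* and *Ptgs2* against the percent of counts on olfactory and vomeronasal receptor genes, with 1 point for each of 12 lungs (circles are females, squares males, grey is room air and red hyperoxia). *Hpgd* descends along the share (r -0.95), whereas *Ptgs2* does not (r -0.24).

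*Alox5*, the 5-lipoxygenase of neutrophils, macrophages and mast cells that makes leukotriene A4, stood within a narrow band. *Alox5* (ENSMUSG00000025701, chromosome 6, 116410077 to 116461178, minus strand) measured 20.5, 20.5 and 22.99 CPM in room air females and 25.4, 22.98 and 24.1 CPM in hyperoxia-exposed females. The female groups met at a single value, room air female 6 and hyperoxia-exposed female 4. The males measured 23.99, 22.95 and 24.3 CPM in room air and 20.7, 25.04 and 23.3 CPM after hyperoxia. The log2 fold change was 0.18 (SE 0.14) in females and -0.05 (SE 0.14) in males, and with the receptor share in the model it was 0.08 and -0.02. The coefficient of variation over the 12 lungs, 7.29%, was the smallest of the set.

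*Alox5ap* encodes FLAP, the membrane protein that hands arachidonic acid to 5-lipoxygenase, and it did not run parallel to its partner. *Alox5ap* (ENSMUSG00000060063, chromosome 5, 149264767 to 149288153, plus strand) stood at 17.7, 19.1 and 17.8 CPM in room air females and at 14.2, 15.6 and 14.6 CPM in hyperoxia-exposed females. Every hyperoxia-exposed female lay below every room air female. Males stood at 12.7, 14.2 and 14.6 CPM in room air and at 17.2, 15.2 and 12.8 CPM after hyperoxia, and overlapped. The log2 fold change was -0.30 (SE 0.14) in females (edgeR unadjusted p 0.0465, adjusted p 0.392) and 0.13 (SE 0.15) in males. With each lung left out in turn, the value in males ran from 0.02 to 0.24. The interaction was -0.43 (SE 0.21, adjusted p by edgeR 0.578). Over the 12 lungs the log2 CPM of *Alox5* and *Alox5ap* had an r of -0.72, given as a description over the same 12 libraries. With the receptor share in the model *Alox5ap* was at -0.21 in females, and the interaction was -0.31. Of the exon bases of *Alox5ap*, 189 of 1420 overlap *Gm19719* on the opposite strand.

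*Lta4h*, the hydrolase that turns leukotriene A4 into leukotriene B4, is expressed in most cells. *Lta4h* (ENSMUSG00000015889, chromosome 10, 93453411 to 93484875, plus strand) stood at 62.6, 65.0 and 51.6 CPM in room air females and at 50.7, 49.1 and 52.6 CPM in hyperoxia-exposed females. In males it stood at 46.6, 51.0 and 47.9 CPM in room air and 60.5, 40.3 and 57.1 CPM after hyperoxia. The groups overlapped in both sexes, and the hyperoxia-exposed males bracketed the room air males. The log2 fold change was -0.23 (SE 0.18) in females and 0.12 (SE 0.18) in males, where it ran from 0.01 to 0.29 with each lung left out in turn. *Lta4h* and *Ptgs1* had the highest r of any pair of the set over the 12 lungs, 0.84, and *Alox5* and *Lta4h* the lowest, -0.84.

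*Ltc4s*, the synthase of the first cysteinyl leukotriene, gave the thinnest counts, 40 to 65 per lung. *Ltc4s* (ENSMUSG00000020377, chromosome 11, 50236461 to 50238616, minus strand) ranged from 3.52 to 4.90 CPM, with means between 3.89 CPM in room air females and 4.38 CPM in hyperoxia-exposed males. All groups overlapped, and the log2 fold change was 0.03 in females and 0.06 in males. Its interval over both sexes reached from -0.30 to 0.38, and 268 of its 1014 exon bases overlap *Gm26542* on the opposite strand.

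*Alox15*, the 12/15-lipoxygenase of macrophages and eosinophils that takes part in making lipoxins, ranged from 12.4 to 16.98 CPM. *Alox15* (ENSMUSG00000018924, chromosome 11, 70344152 to 70352031, minus strand) averaged 12.999 CPM (SD 0.97, n = 3) in room air females and 14.8 CPM (SD 1.31, n = 3) in hyperoxia-exposed females. Males averaged 14.5 CPM (SD 1.02, n = 3) in room air and 14.3 CPM (SD 2.33, n = 3) after hyperoxia. The groups overlapped in both sexes, and the log2 fold change was 0.19 (SE 0.15) in females and -0.03 (SE 0.15) in males. With the receptor share in the model it was 0.13 in females. Over all alternatives other than leaving out single lungs, the value in females ran from 0.08 to 0.21.

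**Figure D4:**
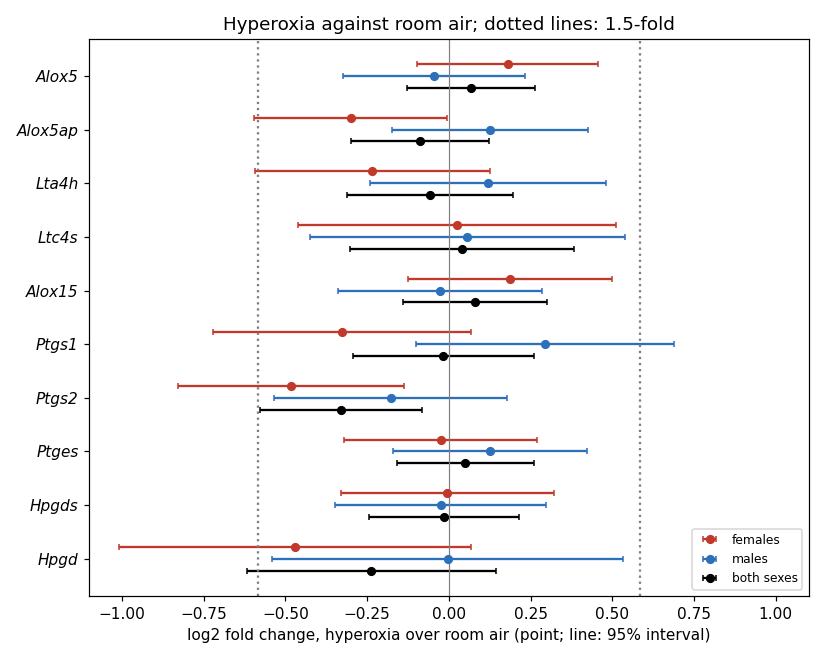
Log2 fold change of each gene for hyperoxia over room air in females (red), males (blue) and both sexes (black), with 95% intervals of the edgeR fit and dotted lines at 1.5-fold. The interval leaves out 0 for *Ptgs2* in females and in both sexes and for *Alox5ap* in females.

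The intervals state which sizes of change these lungs allow. The widest was that of *Hpgd* in each sex, from -1.01 to 0.07 in females and from -0.54 to 0.53 in males on the log2 scale. The highest upper limit was 0.51 in females (*Ltc4s*) and 0.69 in males (*Ptgs1*). Without room air male 1, log2 fold changes in males were 0.17 for *Ptgs1*, 0.10 for *Ptges*, 0.09 for *Lta4h*, 0.07 for *Alox5ap*, 0.02 for *Ltc4s* and 0.01 for *Hpgds*. They were -0.04 for *Alox5*, -0.07 for *Alox15*, -0.11 for *Ptgs2* and -0.17 for *Hpgd*, each with an adjusted p of 1.00 by edgeR. With that lung, *Ptgs1* stood at 0.29, *Ptgs2* at -0.18 and *Hpgd* at 0.00. The interaction without it was -0.50 for *Ptgs1*, -0.37 for *Alox5ap* and -0.30 for *Hpgd*, compared with -0.62, -0.43 and -0.47 with all 12 lungs. It was -0.38 for *Ptgs2* and 0.26 for *Alox15*, compared with -0.30 and 0.21, and -0.33 for *Lta4h*, 0.21 for *Alox5* and -0.13 for *Ptges*, compared with -0.35, 0.23 and -0.15. For *Hpgds* and *Ltc4s* it lay within 0.04 of 0 with and without that lung.

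Of the 16 lists of cell type markers, 4 had sums that did not overlap between the same female groups. The 4 heart muscle markers summed to 138 to 160 CPM in room air females and 66.5 to 99.8 CPM in hyperoxia-exposed females, the 9 mast cell markers to 82.3 to 85.9 and 70.6 to 72.5 CPM, and the 4 smooth muscle markers to 161 to 187 and 126 to 153 CPM. By gene, 3 of 4 heart muscle and 3 of 4 smooth muscle markers had a log2 fold change below 0 in females. Of the mast cell markers only 2 of 9 were below 0 and 7 above, with a median of 0.14, so the sum and most single genes ran opposite ways. *Hdc*, the histidine decarboxylase, alone held 28.8 to 52.5 CPM over the 12 lungs. The 8 lung tissue markers summed to 10998 to 21287 CPM in room air females and 9943 to 10804 CPM in hyperoxia-exposed females, with 8 of 8 log2 fold changes below 0. In males the groups overlapped in each of these 4 sums. The part of the sums in the values of *Ptgs2* and *Alox5ap* was not tested. The sums of the endothelium, alveolar type 2 and airway epithelium lists overlapped in females, with 6 of 6, 6 of 6 and 4 of 4 log2 fold changes below 0. The 12 alveolar macrophage markers (273 to 500 against 295 to 437 CPM), the 10 neutrophil markers (114 to 201 against 109 to 143 CPM) and the 6 platelet markers (51.2 to 68.9 against 57.6 to 64.1 CPM) overlapped between the female groups. By gene, 6 of 12 alveolar macrophage, 8 of 10 neutrophil and 3 of 5 tested platelet markers were below 0 in females. No marker of the 16 lists was called in females, in males or in both sexes, and none was at 0 in all lungs. In whole lungs, fewer cells of a type cannot be told apart from less RNA per cell.

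The rest of the pathway was read from 48 further genes, in which the symbol *Dpep2* stands for 2 gene identifiers and so gives 49 tests. None was called in any of the 5 comparisons. With 1, 2 and 3 RUVr factors 1, 2 and 2 of them were called for the interaction, beside 4.58%, 4.77% and 5.2% of all genes in either direction. In females 25 of 49 had a log2 fold change above 0 and 24 below, with a median of 0.00, and in males 21 were above and 28 below. Among phospholipases that release arachidonic acid, 6 of 10 were above 0 in females and 3 of 10 in males. The 9 prostanoid receptors had 6 above 0 in females and 3 in males, and the 6 leukotriene and lipoxin receptors had 2 above 0 in each sex. Of the 8 further prostanoid synthases 2 were above 0 in females and 4 in males, of the 5 other lipoxygenases 4 and 2, and of the 11 tests of transport and breakdown 5 and 7. Groups that did not overlap were found in females for 3 of the 49 tests with hyperoxia lower (*Ltb4r1*, *Ptges3* and *Ptgir*), beside 6.42% of all genes, and for 4 with hyperoxia higher (*Aloxe3*, the second identifier of *Dpep2*, *Prxl2b* and *Ptgdr2*), beside 10.8%. In males they were found for 3 lower (*Abcc1*, *Abcc4* and *Pla2g4a*), beside 3.89%, and for 3 higher (the same *Dpep2* identifier, *Pla2g10* and *Ptgds*), beside 2.73%.

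*Ptges3*, a co-chaperone also described as the cytosolic prostaglandin E synthase, had the lowest p of these genes in females. It stood at 40.1 to 56.7 CPM in room air females and at 30.9 to 34.8 CPM in hyperoxia-exposed females, with a log2 fold change of -0.54 (SE 0.18) and an adjusted p by edgeR of 0.348. In males it ranged from 30.3 to 37.6 CPM in room air and from 21.99 to 40.6 CPM after hyperoxia.

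*Prxl2b*, a prostamide and prostaglandin F synthase, ranged from 4.81 to 5.60 CPM in room air females and from 6.44 to 8.88 CPM in hyperoxia-exposed females (log2 fold change 0.53, SE 0.21, adjusted p by edgeR 0.357). *Ltb4r2*, the low-affinity receptor of leukotriene B4, ranged from 8.13 to 9.80 CPM and from 9.53 to 13.7 CPM (0.44, SE 0.18, adjusted p by edgeR 0.359). In males the lowest p belonged to *Pla2g4a*, the cytosolic phospholipase A2, to *Ptger3*, a receptor of prostaglandin E2, and to *Ptgds*, the lipocalin-type prostaglandin D synthase. Their log2 fold changes in males were -0.30 (SE 0.14), -0.40 (SE 0.18) and 0.30 (SE 0.17), each with an adjusted p of 1.00 by edgeR. *Pla2g4a* ranged from 24.01 to 27.7 CPM in room air males and from 19.05 to 22.6 CPM after hyperoxia, and *Ptgds* from 7.04 to 8.39 and 9.16 to 10.2 CPM. The background share was 59.4% for *Ptger3*, 41.1% for *Ltb4r2*, 33.1% for *Pla2g4a*, 22.4% for *Ptgds* and 19.5% for *Prxl2b*.

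In both sexes together the lowest p belonged to the second identifier of *Dpep2*, a dipeptidase that acts on leukotriene D4, to *Ptges3* and to *Ptgir*, the prostacyclin receptor. That *Dpep2* identifier held only 3 to 18 counts per lung, below the background density expected for its length, and its log2 fold change of 0.92 (SE 0.36, adjusted p by edgeR 0.927) is therefore near the limit of measurement. *Ptges3* was at -0.31 (SE 0.13) and *Ptgir* at -0.20 (SE 0.10), each with an adjusted p of 0.927 by edgeR. *Ptgir* stood at 15.9 to 18.4 CPM in room air females and 11.6 to 15.4 CPM after hyperoxia, and at 14.0 to 16.1 and 13.9 to 15.1 CPM in males.

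The genes whose log2 CPM ran most like a member over the 12 lungs were sought among 41163 genes with at least 1 CPM on average. As a description, *Ptgs1* was closest to *Fgfr3* (r 0.99), *Foxo3* (0.98) and *Kank3* (0.97), *Hpgd* to *Rmc1* (0.99), *Itga3* (0.98) and *Wwp2* (0.98), and *Lta4h* to *Mtmr4* (0.98), *4632418H02Rik* (0.97) and *Atp2b4* (0.97). *Ptgs2* was closest to *Hsd17b7* (r 0.88), *2810428J06Rik* (0.87) and *Kcnj2* (0.84), *Alox5ap* to *Bex2* (0.89), *Ticam1* (0.89) and *Rassf1* (0.89), *Ptges* to *Mapk1ip1* (0.94), *Sycp3* (0.94) and *Hdgfl3* (0.92), and *Ltc4s* to *Sox10* (0.87), *Panx2* (0.86) and *Gm7368* (0.83). *Alox5* was closest to *Gm19159* (r 0.96), *Gm10620* (0.96) and *Gm21411* (0.95), *Hpgds* to *Naip3-ps1* (0.96), *Gm4751* (0.94) and *Zfp879* (0.93), and *Alox15* to *Olig3* (0.92), *Sult2a7* (0.92) and *Bex6* (0.91). The neighbours of *Alox5*, *Hpgds* and *Ltc4s* thus include pseudogenes, of which those named averaged 1.31 to 3.14 CPM, and all these genes share the depth and the background of the same 12 libraries.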

How the data were processed

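Whole lungs of 12 *miR-30a*-/- mice on PND 21 were measured by RNA-Seq. The authors trimmed reads with Trim Galore, mapped them with STAR to mm10 and deposited the unnormalized read counts that featureCounts gave for each gene. Tool versions and the strand setting are not given in the sources used here. The sample labels name a different library kit from the paper. Group, sex and animal number came from the labels. Positions and exon lengths came from GENCODE mouse release 21, promoters and the microRNA from RefSeq.

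Counts were fitted with edgeR 4.0.16 in R 4.3.3 (robust quasi-likelihood, 4 groups, upper-quartile normalization, filterByExpr), and p-values were adjusted by Benjamini-Hochberg over 45828 genes. DESeq2 1.42.0 was an alternative. Tested were 5 contrasts: the effect of hyperoxia in females, in males and as the mean of both, their difference, and females against males. Separate animals are implied by animal numbers. The fit was tested on simulated data: in females it called 41 of 50 genes changed 2-fold and 6 of 50 changed 1.5-fold, with 7 false calls among 45133 genes. These counts were drawn for each gene independently, without variation shared by the genes of a library, so the figures may not hold for the real lungs. Changed genes were drawn above a floor in CPM that *Ltc4s*, at a mean of 4.11 CPM, did not reach. Correlations used 100000 permutations.

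Members and lists were chosen with earlier results of these data known. Named were all 10 members, called pathway genes, the 3 pathway genes of lowest p in females, males and both sexes, and the 3 genes most like each member. Alternatives were TMM, no filter, RUVr with 1 to 3 factors, the receptor share as covariate, 6 libraries only, animal number as a block, the adjusted p alone and each lung left out.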

Additional observations from a re-analysis of the deposited data

How the results depend on the processing

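With the fold threshold kept, none of the 10 genes was called in females, in males, in both sexes or between the sexes under any alternative run. By the edgeR adjusted p alone, RUVr with 1 to 3 factors passed *Ptgs2*, *Ptgs1*, *Lta4h* and *Hpgd* in females. It also passed *Ptgs2* and *Hpgd* in both sexes and *Ptgs2* for sex. Beside these, 11.1%, 4.05% and 3.98% of all genes passed in the same direction with 1 factor. The called share of all genes under the alternatives ran from 0.0% to 4.46% in females, 0.0% to 0.168% in males, 0.00463% to 0.281% in both sexes and 1.02% to 2.39% for sex. For the interaction of sex and hyperoxia, RUVr with 1, 2 or 3 factors called 1 of the 10 each time, *Ptgs1*, beside 4.58%, 4.77% and 5.2% of all genes. Of the further pathway genes it called 1, 2 and 2, *Ptger3*, at a background share of 59.4%, and, with 2 or 3 factors, *Dpep1*. The cause was not tested. Of 990 log2 values of the 10 genes under alternatives, over all 5 comparisons, 915 kept their sign and 75 changed it, all of estimates within 0.47 of 0. Counts near 40 per lung limit *Ltc4s*, and 3 lungs per group limit all intervals.

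The sign changes after hyperoxia in females, males and both sexes were these log2 fold changes. *Ltc4s* in females was -0.0155 with TMM, -0.0180 without the filter and -0.0736 with DESeq2. *Ptges* in females was 0.11 with the receptor share as covariate and 0.00101 with 6 libraries only, and *Hpgds* in females was 0.0208 with 6 libraries only. With that covariate *Ptgs1* was at 0.0110 in females and 0.105 in both sexes, *Lta4h* at 0.0258 in both sexes and *Hpgds* at 0.00936 in males. *Hpgd* in males was 0.00233 with TMM, 0.00802 without the filter, 0.00165 and 0.00174 with 2 and 3 RUVr factors, and 0.0204 with DESeq2. For the interaction 15 of 190 values changed sign and for sex 13 of 190. With the receptor share as covariate the interaction of *Hpgd* turned from -0.47 to 0.0392, *Ptges* from -0.15 to 0.0169, *Hpgds* from 0.0197 to -0.14 and *Ltc4s* from -0.0310 to 0.0302, and the sex difference of *Hpgd* from 0.0828 to -0.0640 and *Ptges* from 0.0315 to -0.0157.

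Leaving out each lung in turn, the lowest and highest log2 fold changes of genes that changed sign were as follows. In females they were -0.0811 and 0.108 for *Ltc4s*, -0.0909 and 0.0593 for *Ptges*, and -0.14 and 0.12 for *Hpgds*. In males they were -0.0967 and 0.0295 for *Alox5*, -0.0149 and 0.184 for *Ltc4s*, -0.17 and 0.16 for *Hpgd*, -0.115 and 0.0747 for *Hpgds*, and -0.149 and 0.0593 for *Alox15*. In both sexes they were -0.00983 and 0.105 for *Ltc4s*, -0.111 and 0.0243 for *Lta4h*, -0.0887 and 0.0860 for *Ptgs1*, and -0.0762 and 0.0481 for *Hpgds*.

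Same-numbered animals did not pair: the correlation of their deviations was 0.08 for female 2, -0.20 for female 5 and -0.35 for male 1. With animal number as a replicate block, only the lungs that share numbers entered: females 2 and 5 and, for both sexes, also males 1 of each exposure. *Ltc4s*, *Ptges* and *Hpgds* in females were then at -0.0770, 0.0718 and 0.134 and *Ptgs1* in both sexes at 0.0609. *Ptgs2* in females was at -0.62 under the block, with an adjusted p by edgeR of 0.0789, and in both sexes at -0.61. In females 0 of the 10 genes were called under it, beside 1.09% of all genes.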
